A study of Mus musculus with 3 samples.

Results

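The genes described here are 10 chemokines that skin mast cells can make: the C-C chemokines Ccl2, Ccl7, Ccl3, Ccl4, Ccl6 and Ccl9 and the C-X-C chemokines Cxcl1, Cxcl2, Cxcl10 and Pf4. They were chosen by symbol, and all 10 were found among the 20677 genes of the deposited expression table. RNA was sequenced from skin mast cells sorted 1 week after birth from mice of the background C57BL/6xCD1xFVB, in 3 libraries. All animals carried the yellow fluorescent reporter EYFP and a Cre recombinase switched on by a pulse of 4'OHT, the active form of tamoxifen. The library labelled early EMP (erythro-myeloid progenitor) came from Csf1rCre/EYFP mice pulsed at embryonic day 8.5. The library labelled late EMP came from Runx1Cre/EYFP mice pulsed at day 8.5, and the library labelled fetal HSC (haematopoietic stem cell) from Runx1Cre/EYFP mice pulsed at day 9.5. The origin is thus inferred from the gene that drives Cre and from the time of the pulse, and driver and origin cannot be told apart for the early EMP library. Each group has 1 library, so differences between libraries carry no replicate error, and they are given without p-values. The labels seen here do not say how many animals, or of which sex, went into a library.

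Chemokines are small secreted proteins that guide leukocytes along a gradient by binding receptors with 7 membrane-spanning segments. Their names follow the spacing of the first cysteines, which are adjacent in the CC family and separated by 1 residue in the CXC family. Mast cells sit close to vessels and nerves in the skin and are known for releasing chemokines on activation, with newly made RNA behind most of that release. Many chemokine genes lie side by side in clusters that arose by duplication, and several are induced through the transcription factor NF-kB.

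The libraries read as mast cells. All 11 mast cell markers were above the filter in each library, and their summed level was between 187821 and 219229 FPKM (fragments scaled to transcript length and library size, a unit that allows levels of different genes to be compared). Markers of structural skin cells were low in every library. The fibroblast list summed to 1.54 to 7.2 FPKM, the keratinocyte list to 0.96 to 3.18 FPKM and the endothelial list to 4.70 to 7.53 FPKM. The depth of the libraries was not stated. The steps between low values implied about 15.0 M, 15.3 M and 17.2 M fragments for early EMP, late EMP and fetal HSC, an imprecise estimate. Sex-linked RNA differed between the libraries, with Xist at 25.6, 0.53 and 52.0 FPKM and Ddx3y at 20.7, 38.5 and 0.32 FPKM in the same order, and its part in the chemokine differences was not tested.

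Promoter sequence was available for 7 of the 10 members as RefSeq windows of GRCm38.p6, from 250 bases before the transcription start to 50 after it. There was no window for Ccl2, Ccl7 and Ccl4, the most abundant members, so their promoters were not searched. The 3 stretches below are shown because Cxcl1, Cxcl2 and Cxcl10 are the members whose level was lowest in the early EMP library and highest in the fetal HSC library. Capitals mark every match, on either strand, to an NF-kB type motif (GGG, any 2 bases, TT, any base and CC), an interferon response type motif (GAAA, any 2 bases and GAAA) or the AP-1 type motif TGANTCA. Each sequence runs 5′ to 3′ along the gene's strand and ends before the transcription start.
Cxcl1, chr5:90891115-90891244, plus strand: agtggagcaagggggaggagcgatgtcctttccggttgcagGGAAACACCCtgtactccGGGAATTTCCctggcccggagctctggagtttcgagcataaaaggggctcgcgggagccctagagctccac
Cxcl2, chr5:90903769-90903898, plus strand: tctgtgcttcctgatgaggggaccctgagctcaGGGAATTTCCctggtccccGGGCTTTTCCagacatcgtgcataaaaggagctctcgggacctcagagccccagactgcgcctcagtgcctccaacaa
Cxcl10, chr5:92348950-92349109, minus strand: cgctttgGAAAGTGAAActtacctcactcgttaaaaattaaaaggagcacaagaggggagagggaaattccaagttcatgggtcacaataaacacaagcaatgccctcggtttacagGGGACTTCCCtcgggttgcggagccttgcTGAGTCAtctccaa

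The same 10 letters, GGGAATTTCC, began 71 bases before the start of Cxcl1 and 97 bases before the start of Cxcl2. The NF-kB type motif was present in 4 of the 7 member windows (Cxcl1, Cxcl2, Cxcl10 and Ccl9) and in 4.79% of all 32851 windows. The interferon response type motif was found in the Cxcl10 window alone among the 7, and in 3.44% of all windows. The AP-1 type motif was in 2 member windows, those of Cxcl10 and Ccl9, and in 7.81% of all windows. TATAAA was in the Ccl9 window alone among the 7 and in 13.6% of all windows, and the GATA type motif AGATAA was in the Cxcl10 and Pf4 windows and in 11.2% of all. No match overlapped a match to another motif in the sequences shown. These are matches of letters, not measured binding sites. Ccl9, with NF-kB type and AP-1 type matches, had the opposite order of libraries to Cxcl1, Cxcl2 and Cxcl10. A link between motifs and the order of libraries was not tested.

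Ccl7 and Ccl2, which attract monocytes through the receptor Ccr2, made up nearly all of the chemokine RNA. Ccl7 (chromosome 11, 82045712 to 82047525, plus strand) reached 8661 FPKM in early EMP, 3406 in late EMP and 4487 in fetal HSC. It was the 6th, 13th and 9th most abundant gene of the table, so only a few genes, among them the granule proteases, were above it. Ccl2 (chromosome 11, 82035577 to 82037452, plus strand) was at 3702, 2013 and 1473 FPKM, the 14th, 25th and 36th most abundant gene. Both were highest in the early EMP library, but the order of the other libraries differed, with late EMP lowest for Ccl7 and fetal HSC lowest for Ccl2. The ratio of Ccl7 to Ccl2 was therefore 2.34, 1.69 and 3.05 in early EMP, late EMP and fetal HSC. This ratio is taken within a library and does not depend on how the libraries are scaled. In bulk RNA, fewer cells that make a chemokine and less RNA per cell cannot be told apart.

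Together the 10 members summed to 12761 FPKM in early EMP, 5762 in late EMP and 6553 in fetal HSC. That was 1.997%, 0.94% and 1.02% of all FPKM in the table. Ccl2 and Ccl7 accounted for 96.9%, 94.0% and 90.9% of the sum. Without them the order of the libraries changed: the other 8 members summed to 397, 344 and 593 FPKM, with fetal HSC highest.

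**Figure D1:**
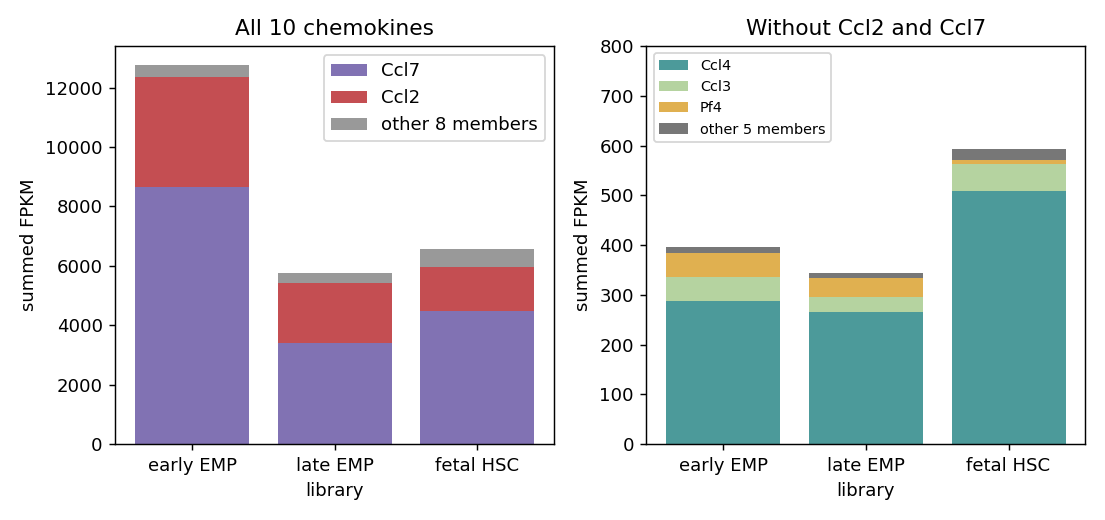
Stacked bars give the summed FPKM of all 10 chemokines (left) and of the 8 members other than Ccl2 and Ccl7 (right) in each of the 3 libraries, on linear axes that start at 0 and differ in range. The early EMP bar is the highest on the left at 12761 FPKM, and the fetal HSC bar is the highest on the right at 593 FPKM, most of it Ccl4.

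Ccl4 and Ccl3 (MIP-1 beta and MIP-1 alpha), which draw in macrophages, T cells and natural killer cells, came next. Ccl4 (chromosome 11, 83648624 to 83664683, plus strand) was at 288, 265 and 508 FPKM in early EMP, late EMP and fetal HSC. Ccl3 (chromosome 11, 83647843 to 83649378, minus strand) was at 49.3, 29.3 and 54.98 FPKM. Both were highest in the fetal HSC library and lowest in the late EMP library. The ratio of Ccl4 to Ccl3 was 5.83, 9.05 and 9.25, so the early EMP library held less Ccl4 for its Ccl3 than the other libraries. The RefSeq spans of these neighbours share 755 bases on opposite strands, while the GENCODE M21 spans share 0. The labels seen here do not say whether counting used strand.

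Ccl9 and Ccl6, ligands of Ccr1 found in mouse but not in human, were low. Ccl9 (chromosome 11, 83572917 to 83578636, minus strand) was at 6.45, 2.25 and 1.75 FPKM. Ccl6 (chromosome 11, 83587886 to 83593087, minus strand) was at 5.74, 0.15 and 2.76 FPKM. Both were highest in the early EMP library, at similar levels. They separated in the late EMP library, where Ccl6 stood near the limit of detection, with about 3.03 fragments at the implied depth against 115 in early EMP and 60.8 in fetal HSC.

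Of the C-X-C members, Pf4 was the most abundant in the libraries labelled early and late EMP. Pf4 (platelet factor 4, also Cxcl4; chromosome 5, 90772435 to 90773383, plus strand) is stored in platelet granules and is also made by some tissue macrophages. It was at 46.7, 38.3 and 7.05 FPKM in early EMP, late EMP and fetal HSC, so both EMP libraries were high and the fetal HSC library low. At the implied depth these values stood for about 335, 274 and 51.9 fragments.

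Cxcl1 and Cxcl2, which recruit neutrophils through Cxcr2, were low everywhere and lowest in the early EMP library. Cxcl1 (chromosome 5, 90891245 to 90893121, plus strand) was at 0.16, 1.42 and 2.85 FPKM, or about 2.02, 18.1 and 38.9 fragments. Cxcl2 (chromosome 5, 90903899 to 90905938, plus strand) was listed at 0 in the early EMP library and was at 4.74 and 6.40 FPKM in the late EMP and fetal HSC libraries. The latter values stood for about 71.7 and 104 fragments, and 1 fragment of Cxcl2 in the early EMP library would have been about 0.067 FPKM. Cxcl10 (chromosome 5, 92346638 to 92348889, minus strand), an interferon-induced ligand of Cxcr3, was at 1.07, 1.85 and 9.03 FPKM. These 3 genes share the same order of libraries, early EMP lowest and fetal HSC highest.

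**Figure D2:**
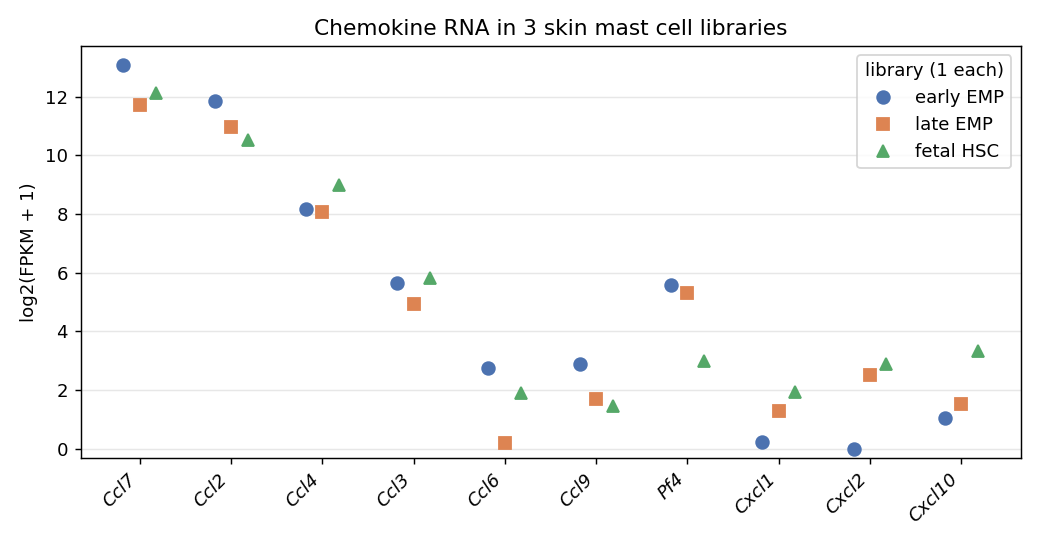
Points give log2(FPKM + 1) of each of the 10 chemokines in the early EMP (circle), late EMP (square) and fetal HSC (triangle) library, with 1 library per group and no error bars. Ccl7 and Ccl2 sit above all other members in every library, and Cxcl1, Cxcl2 and Cxcl10 climb from early EMP to fetal HSC while Pf4, Ccl2 and Ccl9 descend.

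Over all 10 members, 3 were ordered early EMP, late EMP, fetal HSC from high to low (Ccl2, Ccl9 and Pf4), and 3 the opposite way (Cxcl1, Cxcl2 and Cxcl10). Ccl7 and Ccl6 had late EMP lowest and early EMP highest, and Ccl3 and Ccl4 had late EMP lowest and fetal HSC highest. Of the 5 members whose highest library was early EMP, Pf4 was the only C-X-C chemokine. Of the 5 whose highest library was fetal HSC, Cxcl1, Cxcl2 and Cxcl10 were C-X-C and Ccl3 and Ccl4 were C-C chemokines. The list itself holds more C-C than C-X-C chemokines.

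Differences between libraries are given as log2 ratios of FPKM + 1, which understate the difference of low genes. A gene was counted as apart at 2-fold or more on that scale, among the 14412 genes at 1 FPKM or more in at least 1 library. All 10 members passed this filter. A gene below 1 FPKM in a library can be called higher than in that library, but not lower. Among the members this held for Cxcl1 and Cxcl2 in early EMP and for Ccl6 in late EMP. The comparisons with the early EMP library share that library, so their values are given side by side and are not independent.

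The first comparison sets the late EMP library against the early EMP library, the 2 progenitor waves of the design. Lower by at least 2-fold in late EMP were Ccl7 (log2 difference -1.35), Ccl9 (-1.20) and Ccl6 (-2.55). Higher were Cxcl1 (1.06) and Cxcl2 (2.52, from a listed 0). The other 5 members lay within 2-fold, from -0.88 for Ccl2 to 0.46 for Cxcl10. Thus 5 of 10 members were apart, 2 higher and 3 lower, where 19.4% of all genes were, 8.65% higher and 10.8% lower. Among the 11529 genes with a symbol the share was 11.8%. The median over the members was -0.51 on the log2 scale, beside 0.00 over all genes. With a pseudocount of 5 FPKM the count was 2, since the low genes Ccl9, Cxcl1 and Cxcl2 then came within 2-fold.

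In fetal HSC against early EMP, Pf4 (log2 difference -2.57), Ccl9 (-1.44) and Ccl2 (-1.33) were lower by at least 2-fold, and Cxcl2 (2.89, from a listed 0), Cxcl10 (2.28) and Cxcl1 (1.73) were higher. Ccl7, at -0.95, lay just inside 2-fold, and Ccl6 at -0.84, Ccl4 at 0.82 and Ccl3 at 0.15 were also within it. The count was 6 of 10, 3 in each direction, where 26.0% of all genes were apart, 8.19% higher and 17.8% lower, and 16.7% of genes with a symbol. The members' median was -0.34, beside -0.11 over all genes. Without Cxcl2 it was -0.84 over 9 members, because no member lay between the values of Ccl6 and Ccl3.

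The last comparison, fetal HSC against late EMP, keeps the Cre driver the same. The pulse day differed, and so did sex-linked RNA. Xist was at 0.53 FPKM in late EMP and 52.0 in fetal HSC, and Ddx3y at 38.5 and 0.32. Origin and sex can therefore not be told apart in this comparison. Pf4 was lower by at least 2-fold in fetal HSC (log2 difference -2.29), and Cxcl10 (1.82) and Ccl6 (1.71, from about 3.03 fragments) were higher. Ccl4 at 0.93 and Ccl3 at 0.88 were just within 2-fold, and both passed it with median-of-ratios scaling, at 1.07 and 1.02. Ccl7 and Ccl2 moved in opposite directions, at 0.40 and -0.45. The count was 3 of 10, with 2 higher and 1 lower, where 11.7% of all genes were apart, 3.44% higher and 8.26% lower, and 8.07% of genes with a symbol; with median-of-ratios scaling it was 5. The members' median was 0.53, beside -0.10 over all genes.

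**Figure D3:**
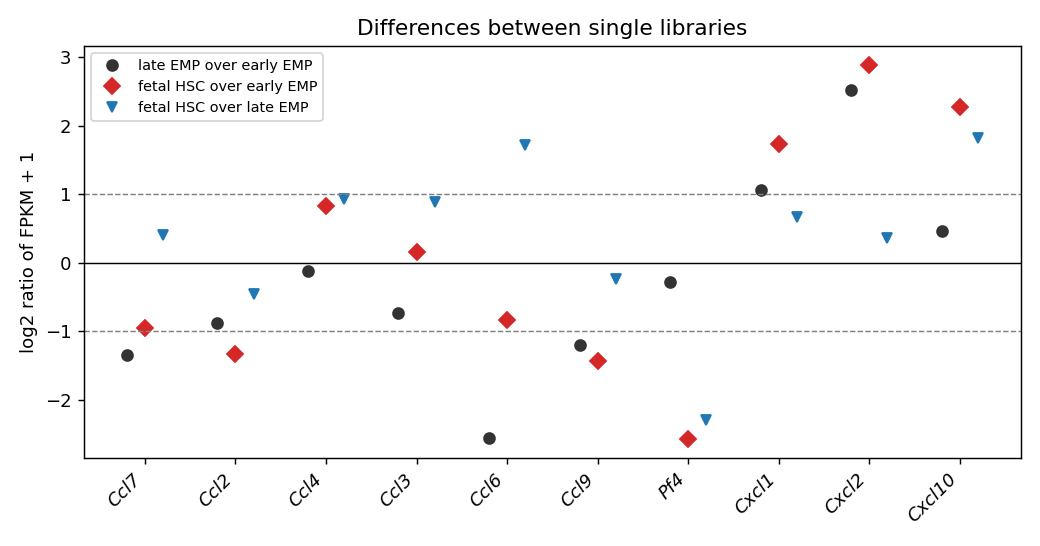
Points give the log2 ratio of FPKM + 1 for each chemokine in the 3 comparisons of single libraries, and dashed lines mark 2-fold. Pf4 lies far below the lower line in both comparisons with fetal HSC (-2.57 and -2.29), Cxcl2 lies above the upper line in both comparisons with early EMP (2.52 and 2.89), and Ccl7 lies between the lines except at -1.35 for late over early EMP.

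The other chemokines were sparse. Of 31 on the list, 20 were in the table and 11 passed the filter. The 20 summed to 113, 76.4 and 134 FPKM in early EMP, late EMP and fetal HSC. Ccl1, a ligand of Ccr8, carried most of it at 93.2, 61.9 and 114 FPKM. Of the 11, 1 was higher and 2 were lower in late EMP than in early EMP (median -0.27). In fetal HSC 4 were higher and 2 lower than in early EMP (0.29), and 3 were higher and none lower than in late EMP (0.60). Of all genes, 8.65%, 8.19% and 3.44% were higher and 10.8%, 17.8% and 8.26% lower in these comparisons. Cxcl9 and Xcl1 (0, 0 and 1.03 FPKM) passed the filter through fetal HSC alone, and Ccl8 through early EMP alone. The direction of their calls was therefore set by the filter. Ccl5, listed at 0 in early EMP, could likewise only be called higher against that library. The 10 members made up 99.1%, 98.7% and 98.0% of all chemokine FPKM.

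Neighbouring genes were read in chromosomal order. In the cluster of 6 genes that starts with Ccl2 and ends with Ccl1, Ccl12, a further ligand of Ccr2, was at 5.39, 1.17 and 1.58 FPKM, the same order of libraries as Ccl7. Ccl8 was at 2.09 and 0.35 FPKM and listed at 0 in fetal HSC, and Ccl11 (eotaxin, which attracts eosinophils) was at 0.84, 0.14 and 0.25 FPKM. Ccl11, which lies next to Ccl7, had that order too, but it was below the filter of 1 FPKM in every library. Ccl1, at the far end, had another order, with fetal HSC highest and late EMP lowest, as Ccl3 and Ccl4 had. In the cluster of Ccl5, Ccl9, Ccl6, Ccl3 and Ccl4, Ccl5 (RANTES) was listed at 0 in early EMP and was at 1.93 and 3.45 FPKM in the others. The outer and inner genes of that cluster thus differed in order, with Ccl9 and Ccl6 highest in early EMP and Ccl5, Ccl3 and Ccl4 highest in fetal HSC.

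On chromosome 5, Ppbp, a platelet chemokine next to Pf4, was listed at 0 in early EMP and fetal HSC and was at 0.27 FPKM in late EMP, where Pf4 was at 38.3 FPKM. Cxcl3, between Pf4 and Cxcl1, was at 0.52 FPKM in late EMP and listed at 0 in the others. Cxcl2 is the member closest in sequence to another gene: 5.84% of its 50-base stretches also occur in Cxcl3 transcripts, so a few of its fragments could have been assigned to either. Of Ccl9 1.97% were shared with other genes, and of each other member none. Cxcl9, next to Cxcl10, was at 0.02, 0.02 and 1.67 FPKM, highest in the same library as Cxcl10.

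**Figure D4:**
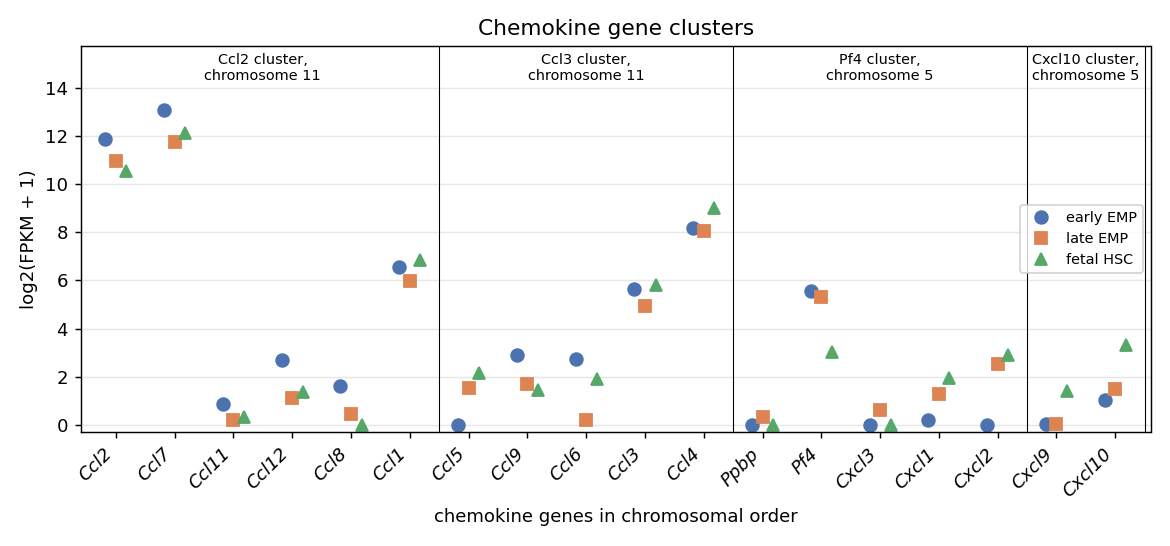
Points give log2(FPKM + 1) of the chemokine genes in the table, in the order in which they lie in 4 clusters on chromosomes 11 and 5, for the early EMP (circle), late EMP (square) and fetal HSC (triangle) library. Ccl2 and Ccl7 stand far above the next genes of their cluster, Ccl11, Ccl12 and Ccl8, while Ccl1 at its far end is at 61.9 to 114 FPKM.

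Pf4 was read beside markers of the other cells that make it. On the macrophage list, 11 of 13 genes passed the filter, and the whole list summed to 127, 100.04 and 70.9 FPKM in the 3 libraries, the order of Pf4, Ccl2 and Ccl9. Fcgr1 alone was listed at 0, in fetal HSC. The complement genes were low in the same library as Pf4: C1qa was at 14.8, 12.2 and 3.05 FPKM, C1qb at 20.4, 13.3 and 3.96, and C1qc at 17.1, 16 and 3.68. Of the 11 genes, 5 were lower and none higher by 2-fold in fetal HSC than in early EMP, where 17.8% of all genes were lower and 8.19% higher. In late EMP against early EMP 2 were higher and 2 lower, where 8.65% of all genes were higher and 10.8% lower. In fetal HSC against late EMP 1 was higher and 6 lower, where 3.44% of all genes were higher and 8.26% lower. Adgre1 (0.50, 2.18 and 0.04 FPKM) and Cd163 (0.02, 1.57 and 0.24 FPKM), higher in late EMP in both comparisons, passed the filter through that library alone. In contrast to the complement genes, Lyz2 was at 37.7, 39.8 and 44.8 FPKM. Cd68 (17.8, 6.44 and 9.70 FPKM) and Cd14 (3.55, 0.42 and 1.98 FPKM) were lowest in late EMP, the order of Ccl7 and Ccl6. Cd14 was the gene higher in fetal HSC than in late EMP. On the platelet list 5 of 9 genes passed, and the 8 genes in the table summed to 75.02, 68.4 and 60.1 FPKM. The defining genes Treml1 and Gp1bb were listed at 0 in early EMP and fetal HSC, and Tubb1 in early EMP. Of the 5 that passed, 2 (Itga2b and Gp9) were lower and none higher in fetal HSC than in early EMP. Itga2b, which mast cells can also express, was at 25.0, 17.4 and 10.9 FPKM, Gp9 at 3.31, 0.97 and 0.87, and Gp1ba at 42.5, 44.2 and 44.3. The part of macrophage or platelet RNA in the differences of Pf4, Ccl2, Ccl9, Ccl7 and Ccl6 was not tested.

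**Figure D5:**
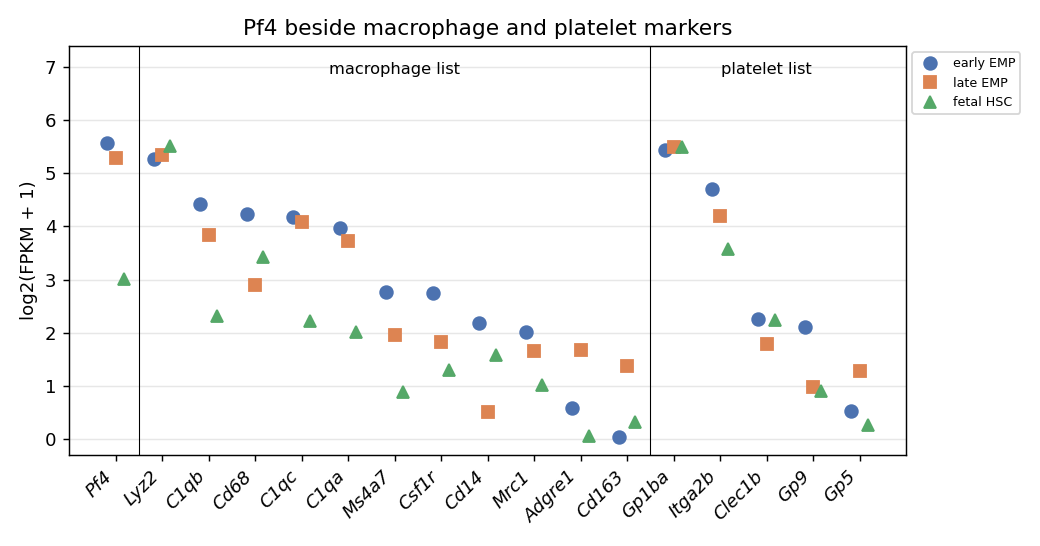
Points give log2(FPKM + 1) of Pf4 and of every macrophage and platelet list gene that passed the filter, in the early EMP (circle), late EMP (square) and fetal HSC (triangle) library. The fetal HSC triangle lies lowest for Pf4 (7.05 FPKM) and for C1qa, C1qb and C1qc (3.05 to 3.96 FPKM), but not for Lyz2, Cd68, Cd14 or Gp1ba.

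Markers of other leukocytes were read beside the remaining members. The neutrophil list summed to 3.02, 48.1 and 112 FPKM, with 6 of 9 genes in the table and 3 above the filter: Mpo, Elane and S100a8. S100a8 was at 1.30 FPKM in early EMP, listed at 0 in late EMP and at 29.0 in fetal HSC. Mpo was at 0.88, 39.2 and 47.9 FPKM and Elane at 0.42, 8.73 and 34.7, while the defining neutrophil gene Ly6g was at 0.42 FPKM in early EMP and listed at 0 in the others. The monocyte and dendritic cell list summed to 6.76, 44.2 and 89.0 FPKM, with Plac8 at 6.24, 39.0 and 62.8 and Ly6c2 at 0.18, 2.65 and 20.9. Cd209a, at 0.05, 1.20 and 0.39 FPKM, was highest in late EMP. Both sums were lowest in early EMP and highest in fetal HSC, the order of Cxcl1, Cxcl2 and Cxcl10, and their part in those differences was not tested. The T cell list summed to 16.1, 6.09 and 19.3 FPKM, an order shared with Ccl3, Ccl4 and Ccl1. Cd3e was at 13.5 FPKM in early EMP, listed at 0 in late EMP and at 0.63 in fetal HSC. Without it, a setting added after the data were seen, the list summed to 2.60, 6.09 and 18.7 FPKM, the order of Cxcl1, Cxcl2 and Cxcl10. Of the remaining genes only Cd3g, at 1.55, 5.36 and 12.0 FPKM, had that order. Lck (0.57, 0.38 and 3.99 FPKM), Cd2 (0.26, 0.19 and 2.28) and Cd3d (0.22, 0.16 and 0.39) had the order of Ccl3, Ccl4 and Ccl1. The part of T cell RNA in the chemokine differences was not tested. The basophil and eosinophil list summed to 2405, 479 and 1027 FPKM, the order of Ccl7 and Ccl6. Nearly all of it was Prss34, a serine protease known from basophils and some mast cells, at 2386, 459 and 989 FPKM. The basophil protease Mcpt8 had another order, at 14.5, 17.4 and 35.9 FPKM, and the eosinophil gene Prg2 was listed at 0 in early EMP and fetal HSC. The part of basophil RNA in the Ccl7 and Ccl6 differences was not tested.

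The genes that act before and after the chemokines were read from fixed lists. Of 13 genes for NF-kB subunits, inhibitors and the kinase complex (Ikbkb, Chuk and Ikbkg), none was 2-fold apart in any comparison. Of all genes, 19.4% were apart in late over early EMP, 26.0% in fetal HSC over early EMP and 11.7% in fetal HSC over late EMP. The medians were 0.46, 0.27 and -0.02 in these comparisons, in the order above. The subunit gene Nfkb1 was at 45.6, 77.03 and 81.7 FPKM, and the inhibitor gene Nfkbia at 1116, 1865 and 1959. Of 10 cytokines that mast cells release with chemokines, 3 were higher and none lower in each comparison with early EMP, namely Il6, Csf2 and Il1b. Il6 was at 23.2, 78.3 and 96.1 FPKM, and Il1b was listed at 0 in early EMP and was at 5.63 and 4.36 FPKM in the others, as Cxcl2 was. Tnf, at 232, 343 and 309 FPKM, lay within 2-fold. Some genes of these lists had early EMP highest, as Ccl2 and Ccl7 had: Il13 was at 80.8, 61.4 and 56.4 FPKM and Tnfaip3, an NF-kB inhibitor, at 475, 448 and 451, both within 2-fold. The share of all genes higher by 2-fold was 8.65% in late EMP and 8.19% in fetal HSC over early EMP. The share lower was 10.8% and 17.8%.

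Zfp36 (tristetraprolin), which binds AU-rich mRNA and speeds its decay, was at 3934, 4656 and 2227 FPKM, a level in the range of Ccl2 and Ccl7. Of 7 genes in the mRNA decay list, Zfp36l1 alone was lower by 2-fold in fetal HSC than in early EMP, and Zfp36 alone in fetal HSC than in late EMP. Of all genes, 17.8% and 8.26% were lower in these comparisons. For the interferon response, which includes the usual companions of Cxcl10, 10 of 15 genes passed the filter. In fetal HSC 2 were higher than in early EMP and none lower, Gbp2 (3.10, 6.16 and 9.51 FPKM) and Ifit1 (0.05, 0.26 and 1.87 FPKM), with a list median of -0.30. Of all genes, 8.19% were higher and 17.8% lower. Ifit1 passed the filter through fetal HSC alone, so it could only be called higher there. Isg15 was at 17.5, 8.01 and 19.5 FPKM, lowest in late EMP. Irf1 was at 25.1, 24.2 and 13.3 FPKM, so the list did not share the order of Cxcl10 as a whole.

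Receptors that bind the members were low in these cells. Of 24 chemokine receptors, 20 were in the table and 10 passed the filter, with 3 higher and 1 lower in late EMP than in early EMP, 6 higher and none lower in fetal HSC than in early EMP, and 4 higher and none lower in fetal HSC than in late EMP. Of all genes, 8.65%, 8.19% and 3.44% were higher in these comparisons and 10.8%, 17.8% and 8.26% lower. Cxcr3 and Xcr1 (0.03, 0.52 and 2.96 FPKM) passed the filter through fetal HSC alone, so they could only be called higher there. Ccr2, Ccr1 and Cxcr6 were below 1 FPKM in early EMP, so against that library they too could only be called higher. They are all of the receptors called higher in late EMP than in early EMP. With Cxcr3 and Xcr1 they are all but Ccr8 of those called higher in fetal HSC than in early EMP. The receptor medians were 0.63, 1.88 and 0.62 on the log2 scale. Ccr2, the receptor of Ccl2 and Ccl7, was at 0.11, 5.56 and 6.66 FPKM, lowest in the library where its ligands were highest. Ccr1, a receptor of Ccl3, Ccl6, Ccl7 and Ccl9, was at 0.48, 2.28 and 6.17 FPKM. Cxcr2, the receptor of Cxcl1 and Cxcl2, was at 0.05, 0.22 and 0.04. Cxcr3, the receptor of Cxcl10, was listed at 0 in early EMP and was at 0.62 and 2.51 FPKM. Ccr2, Ccr1 and Cxcr3 thus had the order of the neutrophil and monocyte and dendritic cell sums, and the part of those cells in the receptor values was not tested. Cxcr6, the receptor of Cxcl16, was at 0.48, 23.1 and 18.4 FPKM, the widest difference from early EMP on the list, with Cxcl16 itself at 1.58, 0.50 and 4.87. The most abundant gene of the receptor list was Ccrl2, an atypical member that binds chemerin, at 988, 437 and 629 FPKM, with the same order of libraries as Ccl7. Ccr8, the receptor of Ccl1, was at 15.3, 25.3 and 104 FPKM, highest in the library where Ccl1 was highest.

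The genes whose profile over the 3 libraries was nearest to that of a member were named by the distance between log2(FPKM + 1) values centred on their mean, among 5653 other genes with a symbol at 10 FPKM or more in a library. For Ccl7 they were Atp1b1, a sodium pump subunit (distance 0.033), Myo6, a myosin (0.059), and Zswim4 (0.071), and 24 genes lay within 0.2. For Pf4 the nearest were Ampd2 (0.38), Vmn2r61 (0.44) and Zfp868 (0.44), and none lay within 0.2. With 3 libraries a profile has few shapes, and nearness describes these libraries only.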

How the data were processed

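RNA was extracted with TRIzol and sequenced on an Illumina HiSeq, per the labels' protocols. Values were deposited as FPKM in 1 table, per the file headers, with a column for each of the 3 libraries. The early EMP column carries the heading of a control, and the description in the labels ties it to that library. The submitters' processing notes name Bowtie2 and RSEM, and mm10 and GRCm38 as builds, without versions or order. Since FPKM is relative to the library, very abundant genes shift all others, and a listed 0 can be a failed estimate.

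From these values log2 ratios of FPKM + 1 were computed, with a filter of 1 FPKM in at least 1 library and a count at 2-fold. With 1 library per group no test was possible. The members and lists were chosen with earlier results of these data known. Genes that could be named were all members, other chemokines and receptors at 1 FPKM or more, the most abundant or 2-fold different genes of each list, cluster neighbours, and the 3 nearest profiles to Ccl7 and Pf4; not every such gene is named. Cxcr2 was below 1 FPKM and was named after its values were seen, as a receptor of members, and so were a few further list genes given with their values. Coordinates and promoters are from RefSeq (GRCm38.p6), and transcript lengths and sequences from GENCODE M21.

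Depth was estimated because low FPKM values of genes with a single transcript fall on multiples of 1 fragment. Depths between 10 and 30 M fragments were searched together with a length offset. At the best fit 69.8%, 70.7% and 66.7% of the values came within 0.15 of a whole fragment, where chance gives 30% for a step fixed beforehand and more for a fitted one. The steps were checked on simulated data. Alternatives were a pseudocount of 0.1 or 5 FPKM, another filter (none, or 5 FPKM), 3 rescalings, and 4-fold. Protein sequences were not used here. Python 3.11.15, numpy 2.4.6, pandas 2.3.3 and matplotlib 3.10.9 were used.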

Additional observations from a re-analysis of the deposited data

How the results depend on the processing

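The direction of every member's difference was the same in all 150 recomputations (10 members, 3 comparisons, 5 settings of pseudocount and scaling). Of these, 141 stayed on their side of 2-fold, 6 came within it and 3 passed it. The 6 were Ccl9 and Cxcl1 in both comparisons with early EMP, Cxcl2 for late over early EMP and Ccl6 for fetal HSC over late EMP, all with a pseudocount of 5 FPKM. The 3 were Ccl6 for fetal HSC over early EMP with a pseudocount of 0.1 FPKM, and Ccl3 and Ccl4 for fetal HSC over late EMP with median-of-ratios factors.

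Counts of members apart changed by more than 1.5 times from 5 to 2 for late over early EMP with a pseudocount of 5 FPKM and from 3 to 5 for fetal HSC over late EMP with median-of-ratios factors. At 4-fold the counts were 2, 3 and 1 in the order of the report. In the same order the medians moved to -0.73, -0.84 and 0.40 with the filter at 5 FPKM, which leaves 9 members, and to -0.73, -0.84 and 0.67 without Cxcl2, a setting added after the data were seen. For fetal HSC over late EMP the median was 0.67 with a pseudocount of 0.1 FPKM, 0.34 with 5 FPKM and 0.65 with median-of-ratios factors, and for fetal HSC over early EMP it was -0.16 with 5 FPKM. The summed FPKM without Ccl2 and Ccl7, also added later, was 397, 344 and 593. Without the unnamed regions, also added later, the share of all genes apart went from 19.4% to 11.8% for late over early EMP and from 26.0% to 16.7% for fetal HSC over early EMP. No paired analysis was possible because each group has 1 library. Differences of members under 1 FPKM in a library rest on few fragments.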
